A study of Saccharomyces cerevisiae with 2 samples.

Results

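Contacts within 11 of the 16 nuclear chromosomes of *Saccharomyces cerevisiae* were followed with distance: chromosomes II, V, VII, VIII, IX, X, XI, XIII, XIV, XV and XVI. A contact is a sequenced ligation product that joins 2 MspI restriction fragments, and a pair was kept when both fragments lay on the same chromosome and were neither identical nor next to each other. The 11 chromosomes hold 9848 MspI fragments, with a median length of 555 bp, and 4670882 possible pairs of this kind out of 7060299 on all 16 chromosomes. In the uniquely mapped data, 50352 of these pairs were seen with 163376 counts in glycerol lactate, and 213482 pairs with 339617 counts in galactose. All 16 chromosomes together gave 70836 pairs with 226284 counts and 298487 pairs with 472628 counts, respectively. The choice of pairs used no count.

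Genome Conformation Capture (GCC) cross-links chromatin with formaldehyde, cuts it with MspI, ligates the cut ends and sequences the products without enriching for any locus. The strain was BY4741 (MATa his3Δ1 leu2Δ0 met15Δ0 ura3Δ0), a haploid laboratory strain, in both media. Cultures grew at 30 °C in synthetic complete medium and were taken at an OD600 of 0.6, either on glycerol and lactate, which yeast can only respire, or on galactose, which it respires and ferments at the same time. The main methods also list a small amount of glucose in the glycerol lactate medium. The main and supplementary methods give different glycerol concentrations for it. Each medium is represented by 1 library in which the authors combined 2 biological replicates, so the spread between replicates is unknown, no test between the media was possible, and every difference between media below has no replicate check.

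The frequency with which loci of a chromosome meet falls as the DNA between them lengthens, and how steeply it falls depends on how the chromatin fibre is folded and how far it can move. In yeast nuclei the centromeres are gathered at the spindle pole body and the telomeres lie at the nuclear envelope, so that chromosome arms run alongside each other from a common point, an arrangement named after Rabl. Beyond the distance at which a chromosome behaves as a coherent object, contacts within it approach the level of contacts between different chromosomes. That level serves as a floor against which the decay can be read.

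The libraries differed in more than medium. Counts between adjacent fragments, which include DNA left uncut, made up 91.1% of same-chromosome counts of the 11 chromosomes in glycerol lactate and 71.1% in galactose, and the pairs described here made up 8.88% and 27.6%. Contacts between different chromosomes had a density of 2.06 counts per 1000 possible pairs in glycerol lactate and 4.13 in galactose. The strain was checked on the deleted markers: the URA3 fragments of 782 and 276 bp on chromosome V had 0 counts of any kind in glycerol lactate and 1 each in galactose, where other fragments of like length on that chromosome had medians of 324 to 435.5 counts. The HIS3 fragments on chromosome XV, of which the his3Δ1 allele removes only a part, had 425 and 434 counts in glycerol lactate and 373 and 330 in galactose, close to the medians of fragments of like length.

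Contact density, the counts per 1000 possible pairs at a given midpoint distance, fell with distance in both media, but along curves of different shape. In glycerol lactate it was 27384 below 0.5 kb, 9936 at 0.5 to 1 kb, 2874 at 1 to 2 kb and 772 at 2 to 4 kb. It continued through 259 at 4 to 8 kb, 103 at 8 to 16 kb, 37.5 at 16 to 32 kb and 11.8 at 32 to 64 kb. Beyond 64 kb it levelled off, with 4.41 at 0.064 to 0.128 Mb, 2.87 at 0.128 to 0.256 Mb, 2.29 at 0.256 to 0.512 Mb and 2.19 at 0.512 to 1.024 Mb. The last of these values had a 95% Poisson interval of 2.08 to 2.29, and it was 1.06 times the density between chromosomes.

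In galactose the curve started lower and stayed high for longer. Density was 11357 below 0.5 kb, 5273 at 0.5 to 1 kb, 2549 at 1 to 2 kb and 1507 at 2 to 4 kb. At 4 to 8 kb it was still 956, followed by 585 at 8 to 16 kb, 311 at 16 to 32 kb and 126 at 32 to 64 kb. The steep part came later, with 39.2 at 0.064 to 0.128 Mb, 13.1 at 0.128 to 0.256 Mb, 6.90 at 0.256 to 0.512 Mb and 5.77 at 0.512 to 1.024 Mb. The share of possible pairs seen at least once shows the same difference: at 16 to 32 kb it was 3.17% in glycerol lactate and 24.4% in galactose. Intervals throughout are 95% and account for counting error alone, because the tables do not tell repeat copies of a ligation product from separate ligations.

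**Figure D1:**
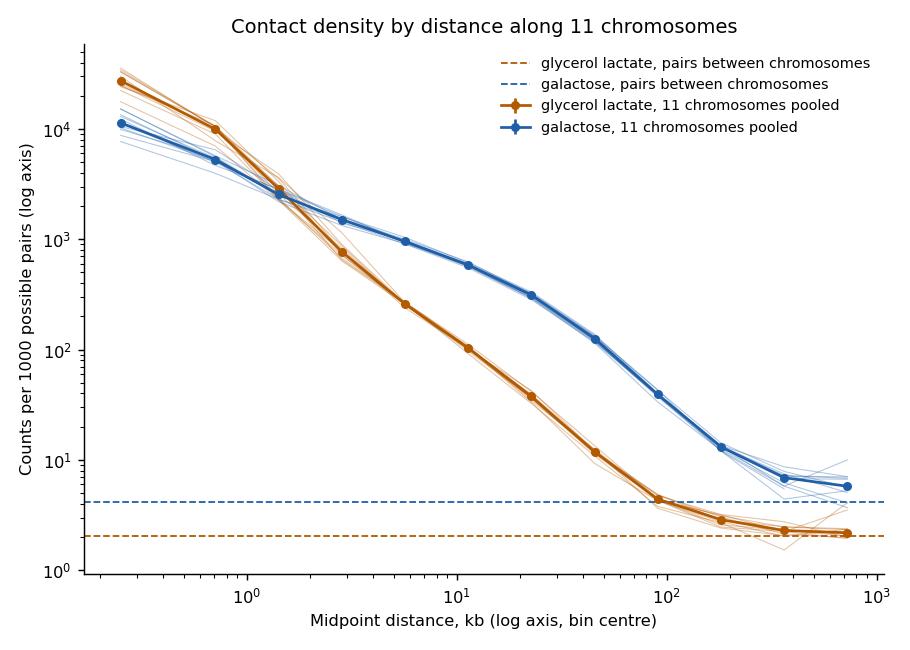
Contact density (counts per 1000 possible fragment pairs, log axis) against midpoint distance in kb (log axis) for glycerol lactate and galactose; points are the 11 chromosomes pooled with 95% Poisson intervals, thin lines are single chromosomes and dashed lines the density of pairs between different chromosomes. The curves cross between 1 and 4 kb, and from 4 kb to 0.512 Mb every galactose line lies above every glycerol lactate line.

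The ratio of density in galactose to that in glycerol lactate therefore changed with distance. It was 0.415 (0.407 to 0.423) below 0.5 kb, 0.531 at 0.5 to 1 kb and 0.887 at 1 to 2 kb. It then rose through 1.95 at 2 to 4 kb, 3.69 at 4 to 8 kb, 5.67 at 8 to 16 kb and 8.29 at 16 to 32 kb to its highest value, 10.6 (10.3 to 11.0), at 32 to 64 kb. Farther out it came down again, to 8.88 at 0.064 to 0.128 Mb, 4.57 at 0.128 to 0.256 Mb, 3.01 at 0.256 to 0.512 Mb and 2.64 (2.50 to 2.79) at 0.512 to 1.024 Mb. All 11 chromosomes were below 1 in each of the bins under 1 kb and above 1 in each of the bins from 2 kb to 0.512 Mb, and at 32 to 64 kb their ratios ran from 9.82 to 12.3. At 1 to 2 kb the chromosomes were divided, with 3 of 11 above 1.

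The media were also compared after division by a common scale. Relative to the density between chromosomes, the ratio was 0.207 below 0.5 kb, 0.973 at 2 to 4 kb, 5.30 at 32 to 64 kb and 1.32 at 0.512 to 1.024 Mb. Relative to the total of the 11 chromosomes it was 0.200, 0.939, 5.12 and 1.27 in the same bins. Such a division multiplies every bin by the same factor, so the bin with the highest ratio cannot move, but the distance at which the curves crossed did, lying between the 1 to 2 kb and 2 to 4 kb bins before division and between the 2 to 4 kb and 4 to 8 kb bins after either division.

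**Figure D2:**
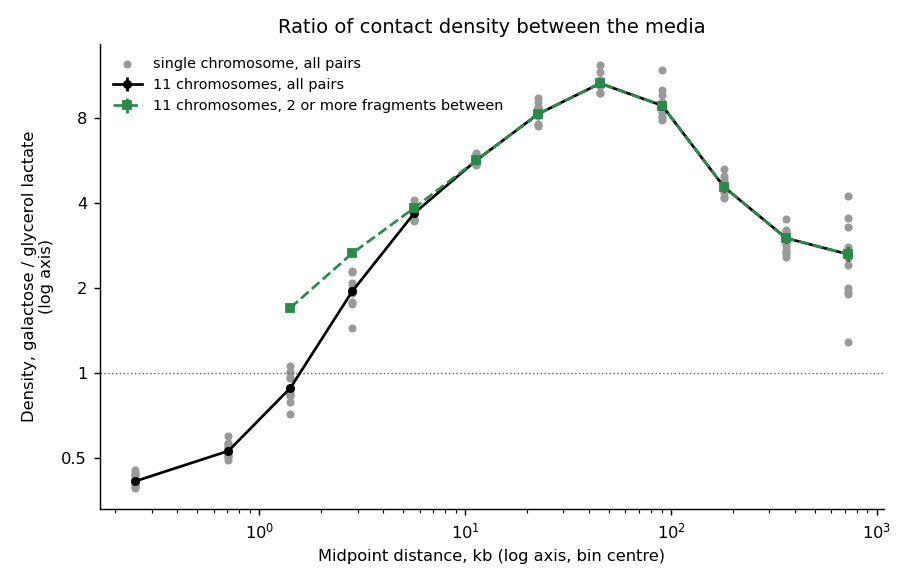
Contact density in galactose divided by that in glycerol lactate (log axis) against midpoint distance in kb (log axis); grey points are single chromosomes, the black line the 11 chromosomes pooled and the green dashed line the same after leaving out pairs with 1 fragment between them, with 95% intervals. The ratio peaks at 10.6 at 32 to 64 kb, and leaving out the nearest pairs lifts the value at 1 to 2 kb from 0.887 to 1.70.

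A decay exponent, the slope of log density on log distance, summarises the range from 2 to 64 kb. Pooled over the 11 chromosomes it was -1.48 (-1.57 to -1.38) in glycerol lactate and -0.89 (-1.13 to -0.64) in galactose, with intervals from the scatter of 5 distance bins around the line. Leaving out each chromosome in turn moved it only between -1.49 and -1.46 in glycerol lactate and between -0.89 and -0.88 in galactose. Chromosome by chromosome the exponent was less negative in galactose on 11 of 11, by 0.49 on chromosome XIII to 0.78 on chromosome IX. In glycerol lactate it ran from -1.66 on chromosome IX to -1.38 on chromosome XIII, with an SD of 0.08 over chromosomes. In galactose the range was narrower, from -0.92 on chromosome V to -0.86 on chromosome XI, with an SD of 0.02. The size of the difference between media depended on the range of the line: over 4 kb to 0.128 Mb the exponents were -1.47 and -1.11, a difference of 0.36 in place of 0.59. With all mapped sequences, repeats included, they were -1.20 and -0.86, a difference of 0.34.

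A straight line described the galactose data poorly, as the step from each bin to the next shows. In galactose the local exponent was -0.66 from the 2 to 4 kb bin to the next and -0.71 one step on, then steepened to -0.91, -1.31 and -1.68, the last being the step from 32 to 64 kb to 0.064 to 0.128 Mb. It stayed at -1.58 in the next step before flattening to -0.93 and -0.26. In glycerol lactate the same steps gave -1.57, -1.33, -1.46, -1.67, -1.42, -0.62, -0.33 and -0.07. Over all pairs, glycerol lactate thus fell at a roughly even rate up to 0.128 Mb, while galactose had a shoulder up to about 16 kb and its steepest fall between 0.032 and 0.256 Mb. The even rate depended on pairs with only 1 fragment between them. Without these, glycerol lactate densities were 908 at 1 to 2 kb, 494 at 2 to 4 kb and 245 at 4 to 8 kb. They were 103 at 8 to 16 kb, 37.5 at 16 to 32 kb and 11.8 at 32 to 64 kb, so this fall steepened with distance too. The galactose shape was shared by the chromosomes: the step into the 0.064 to 0.128 Mb bin lay between -1.78 and -1.62 on all 11.

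Much of the near end of the curves came from pairs with only 1 fragment between them. These 9826 possible pairs took 60.6% of the counts in glycerol lactate and 16.3% in galactose. Their mean count depended on the length of the fragment in the middle. Where that fragment was under 50 bp, the 699 pairs averaged 100 counts in glycerol lactate and 41.7 in galactose. Between 50 and 100 bp the means were 35.0 and 11.8, and from 100 to 200 bp they dropped to 2.46 and 3.07. From 200 to 400 bp galactose was higher, at 2.70 against 1.00, and with a middle fragment of 1600 bp or more it was 1.60 against 0.518. The order of the media therefore changed between middle fragments shorter and longer than 100 bp, at the same number of fragments apart.

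At matched distance the number of fragments in between also mattered. Pairs 2 to 4 kb apart had a density of 2831 in glycerol lactate and 2926 in galactose with 1 fragment between, 654 and 1743 with 2 between, and 453 and 1205 with 3 or more between. After pairs with 1 fragment between were left out, galactose was higher in every distance bin from 1 kb up and on 11 of 11 chromosomes in each bin to 0.512 Mb, and the ratio was 1.70 at 1 to 2 kb, 2.66 at 2 to 4 kb and 3.85 at 4 to 8 kb. The exponents without these pairs were -1.31 in glycerol lactate and -0.86 in galactose, and galactose remained less negative on 11 of 11 chromosomes. The part of incomplete digestion in these near pairs was not tested.

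**Figure D3:**
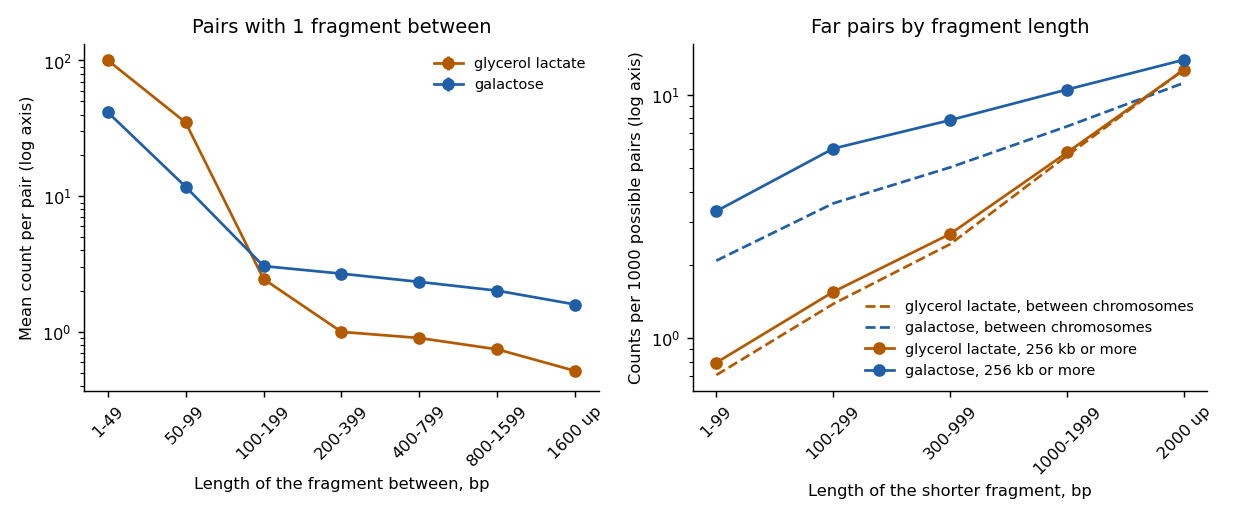
Left, mean count per pair (log axis) of fragment pairs with 1 fragment between them, by the length of that fragment in bp, with 95% Poisson intervals. Right, counts per 1000 possible pairs (log axis) at 0.256 Mb or more and between chromosomes (dashed), by the length of the shorter fragment in bp. Glycerol lactate is above galactose at middle fragments under 100 bp and below it from 100 bp up. On the right, the media differ 4.20-fold for fragments under 100 bp and 1.10-fold for those of 2000 bp or more.

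Fragment length went with the far level too, and differently in the media. At 0.256 Mb or more, pairs whose shorter fragment was under 100 bp had a density of 0.792 in glycerol lactate and 3.33 in galactose, a ratio of 4.20 (3.78 to 4.67). The ratio declined through 3.88 at 100 to 300 bp, 2.94 at 300 to 1000 bp and 1.82 at 1000 to 2000 bp. For pairs of fragments of 2000 bp or more the densities were 12.7 and 14.0, a ratio of 1.10 (0.949 to 1.27) that did not exclude 1. From the shortest to the longest class the far density rose 16.0-fold in glycerol lactate and 4.19-fold in galactose. Contacts between chromosomes moved with fragment length in like manner, 18.1-fold in glycerol lactate and 5.39-fold in galactose. Their order between the media turned in the longest class, where the density between chromosomes was 12.7 in glycerol lactate and 11.2 in galactose. At 8 to 32 kb, in contrast, the rise was 3.09-fold and 4.40-fold, and the media ratio stayed between 5.41 and 9.18 in all 5 length classes.

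Read against contacts between chromosomes, the far level was above the floor in galactose and close to it in glycerol lactate. Density at 0.256 Mb or more was 1.57 times (1.55 to 1.60) the density between chromosomes in galactose and 1.09 times (1.06 to 1.12) in glycerol lactate. Within fragment length classes the value was 1.24 to 1.68 in galactose and 0.999 to 1.12 in glycerol lactate, so that galactose was higher in 5 of 5 classes. Pooled density first fell under 2 times the level between chromosomes in the 0.128 to 0.256 Mb bin in glycerol lactate and in the 0.256 to 0.512 Mb bin in galactose. On single chromosomes this happened at 64 kb on chromosomes VIII and IX and at 0.128 Mb on the others in glycerol lactate, and at 0.256 Mb on all but chromosome X, where it was 0.512 Mb, in galactose. With all mapped sequences, repeats included, far pairs fell below the level between chromosomes in both media, at 0.633 in glycerol lactate and 0.759 in galactose, so this result holds for uniquely mapped sequences only.

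The far level differed between chromosomes. In galactose, chromosome X had the highest value, 2.00 times (1.89 to 2.12) the level between chromosomes, followed by XI at 1.73, XVI at 1.72, XIII at 1.69 and VII at 1.63. Chromosomes XV at 1.53, V at 1.42, II at 1.35, IX at 1.32 and XIV at 1.27 were lower, and chromosome VIII had the lowest, 1.07 (0.954 to 1.21), with an interval that included 1. In glycerol lactate chromosome X was again first, at 1.25 (1.12 to 1.38), and chromosome VIII again last, at 0.773 (0.632 to 0.937), below the pooled level between chromosomes. That level is 1 value per medium over all 16 chromosomes. Each chromosome's own contacts with other chromosomes were not set against its far level. Chromosome VIII also had the lowest density of the 11 at 8 to 16 kb and at 16 to 32 kb in both media. The far level over the pooled level was higher in galactose on 11 of 11 chromosomes, by 0.22 on chromosome XIV to 0.76 on chromosome X. The intervals of neighbours in this order mostly overlapped, and the chromosomes of a library are not replicates of a medium.

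**Figure D4:**
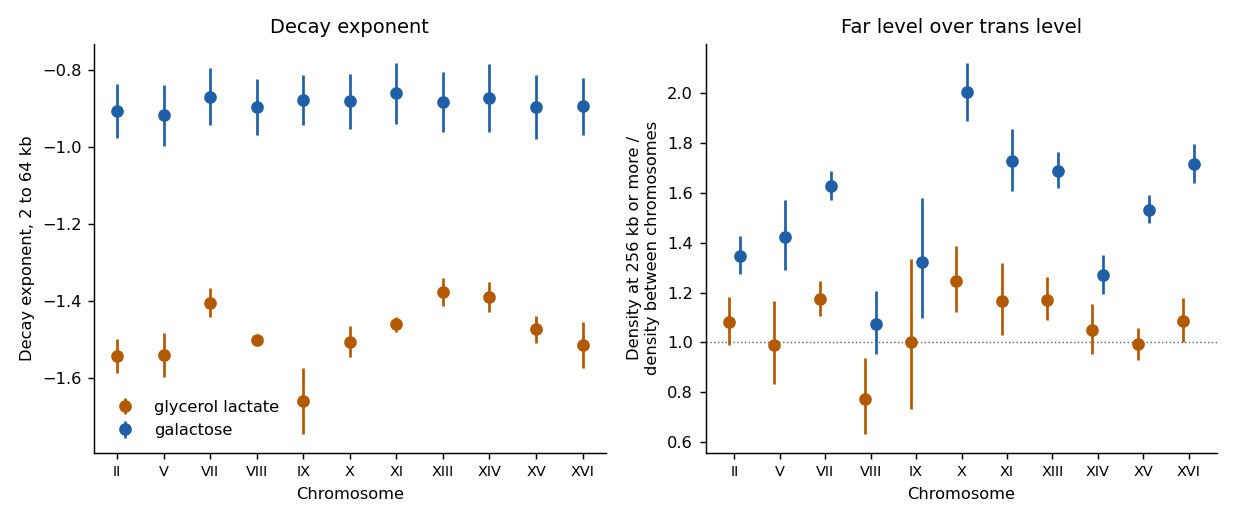
Left, decay exponent over 2 to 64 kb on each of the 11 chromosomes in both media, with its standard error. Right, density at 0.256 Mb or more divided by the density between chromosomes pooled over all 16, with 95% intervals. All 11 exponents lie between -0.92 and -0.86 in galactose and between -1.66 and -1.38 in glycerol lactate, and chromosome X is highest and chromosome VIII lowest on the right in both media.

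In each bin from 4 kb to 0.256 Mb the chromosomes lay closer together, with the highest density 1.13 to 1.29 times the lowest in galactose and 1.13 to 1.45 times in glycerol lactate. Below 0.5 kb they were again farther apart, from 7693 on chromosome VIII to 15204 on VII in galactose, 1.98-fold, and from 17653 on VIII to 35619 on V in glycerol lactate, 2.02-fold. At 16 to 32 kb in galactose, density ran from 333 on chromosome X through 325 on IX, 322 on XVI, 319 on XIII, 318 on XI, 318 on VII and 317 on XV to 296 on II, 295 on XIV, 291 on V and 284 on VIII. Of the 10 steps in this order, only that from XV to II exceeded counting error. In glycerol lactate the same bin ran from 42.5 on chromosome XVI to 32.5 on VIII, and none of 10 steps exceeded counting error. At 8 to 16 kb the highest chromosome, XIII in both media, was above the lowest, VIII in both media, by 1.13 times in galactose and 1.22 times in glycerol lactate. At 0.064 to 0.128 Mb in galactose, chromosome IX was first with 43.2 and chromosome V last with 33.5 (31.8 to 35.3), which was separated from II, the next above it with 37.2.

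The share of counts at 64 kb or more, the far share, was 6.73% (6.61 to 6.85, Wilson) in glycerol lactate and 15.8% (15.6 to 15.9) in galactose. It was higher in galactose on 11 of 11 chromosomes, by 7.32 to 9.86 percentage points. The lowest shares were on chromosome IX, 2.79% and 11.0%, and the highest on chromosome VII, 8.90% and 18.4%. Longer chromosomes had higher shares (Pearson's r over 11 chromosomes 0.956 in glycerol lactate and 0.977 in galactose, as a description), and they also hold more possible pairs at such distances. The difference between media in this share depended on which pairs were counted and how. With all mapped sequences the shares were 23.4% and 23.8%, and with each distinct pair counted once 19.7% and 23.4%. Without pairs that had 1 fragment between them the share was 17.1% in glycerol lactate and 18.8% in galactose, and on chromosome X the order turned, with 18.9% and 18.4%. The median distance of a count was between 0.924 and 1.39 kb on the 11 chromosomes in glycerol lactate and between 10.1 and 13.7 kb in galactose, and without those pairs it was 5.57 to 8.89 kb and 15.2 to 19.1 kb.

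Contacts across the centromere were compared with contacts within an arm at the same distance on the same chromosome. From 0.064 to 0.256 Mb the between-arm ratio was 1.00 (0.940 to 1.07) in glycerol lactate and 0.979 (0.954 to 1.00) in galactose, so neither departed from 1 beyond counting error in uniquely mapped data with these bins. With all mapped sequences both were far above 1, at 3.01 (2.93 to 3.09) and 1.66 (1.63 to 1.69). With fragments weighted by their contacts with other chromosomes both were below 1, at 0.928 (0.871 to 0.989) and 0.801 (0.780 to 0.821). The bins differed, with 0.857 (0.761 to 0.961) at 0.064 to 0.128 Mb, 1.07 at 0.128 to 0.256 Mb and 1.15 (1.07 to 1.23) at 0.256 to 0.512 Mb in glycerol lactate, and 0.915 (0.881 to 0.950), 1.03 and 1.18 (1.13 to 1.23) in galactose. Pairs of the 2 kinds need not be spread alike within a wide bin, so the comparison was repeated with 8 bins per doubling of distance, a choice made after seeing the data. At 0.064 to 0.128 Mb the value was then 0.902 (0.802 to 1.01) in glycerol lactate and 1.00 (0.965 to 1.04) in galactose, neither separated from 1, whereas at 0.256 to 0.512 Mb it was 1.18 (1.10 to 1.27) and 1.32 (1.26 to 1.37). The excess of pairs across the centromere at 0.256 to 0.512 Mb was therefore present with either width. At 32 to 64 kb the value moved from 0.827 (0.717 to 0.950) to 0.883 (0.765 to 1.01) in glycerol lactate and from 0.892 (0.856 to 0.929) to 0.950 (0.912 to 0.990) in galactose, where it stayed below 1. The galactose value for 0.064 to 0.256 Mb moved above 1 with narrower bins, to 1.05 (1.02 to 1.07) with bins 0.5 times as wide and 1.07 (1.04 to 1.09) with 8 bins per doubling.

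Single chromosomes departed from 1 in both directions in galactose. Chromosome II had the lowest between-arm ratio, 0.744 (0.682 to 0.810), followed by VIII at 0.799, XIII at 0.859 and VII at 0.879, all with intervals below 1. Chromosome X had the highest, 1.22 (1.11 to 1.33), and XVI at 1.14 and IX at 1.14 also had intervals above 1. In glycerol lactate only chromosome IX had an interval that excluded 1, at 1.54 (1.15 to 2.05) from 80 counts across the centromere. The media gave the same side of 1 on 8 of 11 chromosomes, VII, VIII, IX, X, XI, XIII, XV and XVI. With 8 bins per doubling, chromosomes II at 0.806 and VIII at 0.844 kept galactose intervals below 1, while those of VII at 0.959 and XIII at 0.952 included it. Chromosomes V at 1.15, XI at 1.09, XIV at 1.12 and XV at 1.12 then had galactose intervals above 1, as did IX, X and XVI. Chromosome XI changed its side of 1 in galactose, and the media were on the same side on 7 of 11 chromosomes. Chromosome X was then at 1.38 (1.26 to 1.51) and IX in glycerol lactate at 1.59 (1.18 to 2.11).

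**Figure D5:**
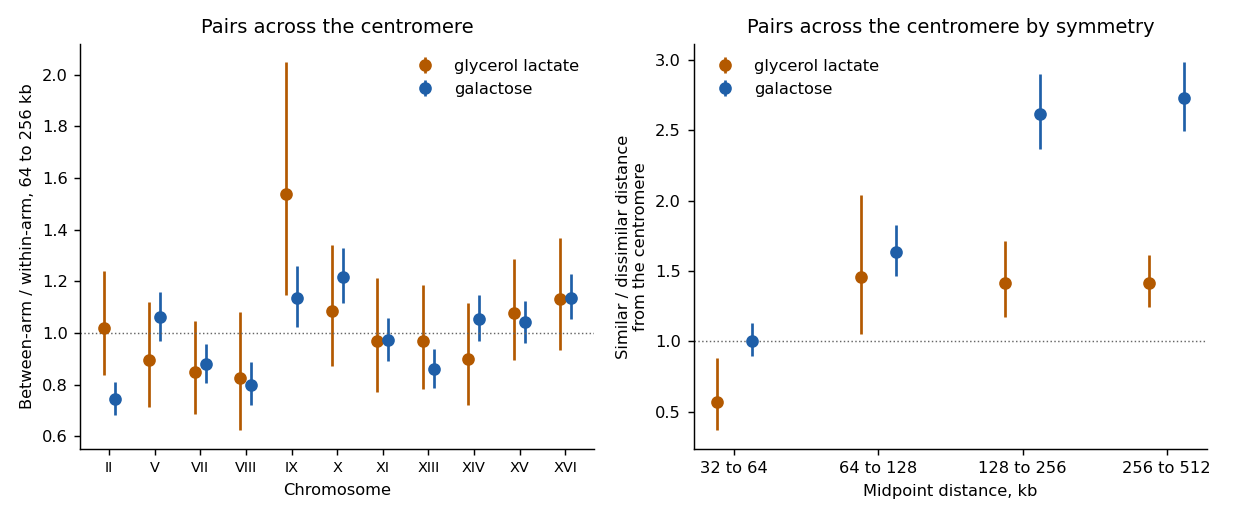
Left, density of pairs across the centromere over that of pairs within an arm at the same distance, 0.064 to 0.256 Mb, for each of the 11 chromosomes. Right, density of pairs across the centromere at similar distances from it over that of pairs at dissimilar distances, by midpoint distance in kb. Bars are 95% counting intervals. On the left galactose runs from 0.744 on chromosome II to 1.22 on X, and on the right it rises from 1.01 at 32 to 64 kb to 2.73 at 0.256 to 0.512 Mb.

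Where on the arms the fragments lay made a clearer difference in galactose. Among pairs across the centromere, those with both fragments at similar distances from it (the distances differing by less than 0.25 of their sum) were set against pairs at dissimilar distances (by more than 0.75 of their sum) in the same distance bin and chromosome. From 0.032 to 0.512 Mb the similar pairs were 2.03 times (1.93 to 2.14) as dense in galactose, from 5434 and 2139 counts, and 1.34 times (1.22 to 1.48) in glycerol lactate, from 1044 and 657 counts. This held on 11 of 11 chromosomes in galactose and 10 of 11 in glycerol lactate. The ratio grew with distance in galactose, from 1.01 at 32 to 64 kb to 1.64 at 0.064 to 0.128 Mb, 2.62 at 0.128 to 0.256 Mb and 2.73 at 0.256 to 0.512 Mb. In glycerol lactate it was 0.571 (0.368 to 0.881) at 32 to 64 kb, from 41 counts, and 1.46, 1.42 and 1.42 in the bins that followed. The comparison was repeated with 8 bins per doubling, where narrow bins of a chromosome without a dissimilar count were left out. This kept 5338 of the 5434 similar counts in galactose but only 858 of the 1044 in glycerol lactate. The ratio over all of these distances was then 1.97 (1.87 to 2.08) in galactose, again above 1 on 11 of 11 chromosomes. In glycerol lactate it was 1.12 (1.01 to 1.24), above 1 on only 6 of 11. In the bin at 0.064 to 0.128 Mb the glycerol lactate value turned from 1.46 to 0.579 (0.379 to 0.877). At 0.128 to 0.256 Mb it fell from 1.42 to 1.07 (0.878 to 1.32), and at 32 to 64 kb from 0.571 to 0.284 (0.158 to 0.490). At 0.064 to 0.128 Mb the narrow bins kept 41 of 106 similar counts but all 59 dissimilar ones. At 32 to 64 kb they kept 19 of 41 but all 50. Similar counts were thus lost where dissimilar ones were sparse, so these falls do not show the effect of bin width alone. Of the glycerol lactate values above 1, that at 0.256 to 0.512 Mb alone kept an interval above 1, at 1.36 (1.19 to 1.57). A dissimilar pair always has 1 fragment close to the centromere, so the comparison is also one between arm interiors and the region next to the centromere.

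Within an arm, density near the centromere could not be told from that of the arm interior. For pairs 8 to 16 kb apart with both fragments within 60 kb of the centromere, the ratio to the interior was 0.978 (0.918 to 1.04) in glycerol lactate and 1.00 (0.974 to 1.03) in galactose. Near the ends it was lower in both media. With both fragments within 60 kb of a chromosome end the ratio was 0.897 at 4 to 8 kb, 0.789 at 8 to 16 kb and 0.752 (0.682 to 0.828) at 16 to 32 kb in glycerol lactate, and 0.867, 0.863 and 0.792 (0.766 to 0.818) in galactose. The part of mapping in this difference was not tested.

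Pairs that joined the last 50 kb of both ends of a chromosome numbered 87 counts in glycerol lactate and 217 in galactose over 34155 possible pairs. The ratio to other pairs of the same distance was 1.36 (1.09 to 1.67) in glycerol lactate and 1.07 (0.932 to 1.22) in galactose. In glycerol lactate, 1 pair in telomeric repeats gave 6 of the 12 counts on chromosome X, and another gave 7 of the 11 on XIV. In galactose these pairs gave 5 of 21 and 2 of 15. Most products of these pairs mapped to more than 1 place, and the ratio without them was not computed. No chromosome had an interval that excluded 1 other than chromosome XI in glycerol lactate, at 2.43 (1.29 to 4.15) from 13 counts. Of these 13, 4 came from 1 pair of fragments with telomeric repeats, which had 48 counts with all mapped sequences. At the level of single chromosomes the depth did not allow more.

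The other 5 nuclear chromosomes, I, III, IV, VI and XII without the rDNA, gave exponents close to these, -1.44 in glycerol lactate and -0.87 in galactose. Their far level over the level between chromosomes was lower, 1.03 (0.990 to 1.06) against 1.09 in glycerol lactate and 1.32 (1.29 to 1.35) against 1.57 in galactose. In galactose the 11 chromosomes also had the lower between-arm ratio, 0.979 (0.954 to 1.00) against 1.15 (1.11 to 1.20). These are pooled values, and the 5 differed among themselves: in galactose the between-arm ratio was 0.808 on chromosome IV, 1.07 on XII, 1.12 on I, 1.29 on III and 1.70 on VI. The far level over that between chromosomes was 1.48 on IV, within the range of the 11, and 0.946 on XII, below it. On chromosome III it was above that range, at 7.96 (5.73 to 10.8) from only 42 counts, and VI had 0 counts that far apart. In galactose the density of the 5 was 0.954 times that of the 11 at 8 to 16 kb. At 0.512 to 1.024 Mb only IV and XII of the 5 have possible pairs. Pooled, these had 0.771 times (0.737 to 0.807) the density of the 11, with 5.38 on IV and 2.32 on XII against 5.77. Distances on XII follow the reference sequence, which holds fewer rDNA repeats than the genome, so pairs on opposite sides of the rDNA lie farther apart than stated.

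Contacts seen repeatedly at long range were rare. At 16 kb or more, 333 of 4500239 possible pairs had at least 3 counts in glycerol lactate, against a background of 0.00695% on all 16 chromosomes, and 2592 in galactose, against 0.0518%. The shares of the 11 chromosomes, 0.00740% and 0.0576%, were close to these backgrounds. In both media 8 pairs had at least 3 counts, which is 2.40% of those in glycerol lactate, where 0.0576% of all possible pairs reached 3 counts in galactose, and 0.309% of those in galactose, where 0.00740% did in glycerol lactate. Of all pairs seen at this range, 2546 were seen in both media, which is 13.5% of those in glycerol lactate and 1.96% of those in galactose, where 2.88% and 0.420% of all possible pairs were seen in the other medium. Near pairs of this range are seen more often than distant ones in both media, and these shares were not matched for distance.

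The pairs with the highest counts are named here by chromosome, with coordinates on the RefSeq chromosome sequences that the study's methods list. On chromosome XIV, the fragment at 358375 to 361306 in the coding sequences of AAH1 (adenine deaminase), MEP2 (an ammonium permease) and RLR1 (THO2, of the THO complex in mRNA export) met the fragment at 414123 to 417631 in CYB5 (cytochrome b5) and DBP2 (an RNA helicase). This pair, 56.0 kb apart, had 7 counts in each medium, where the mean of its chromosome and distance bin was 0.0121 in glycerol lactate and 0.119 in galactose. It was the only pair among the highest 3 of both media (in galactose the third-highest count, 6, was shared by 10 pairs), and it had 13 counts in each medium when all mapped sequences were used.

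In galactose the highest count was 8, on chromosome XI, between 123820 to 124175 in SNU114, a GTPase of the spliceosome, and 148313 to 149864 in a coding sequence without a gene name in the files. The same pair had 0 counts in glycerol lactate, where the mean of its bin was 0.0363, so that 0 was the count to be expected at this depth. Chromosome XIII gave 6 counts in galactose and 1 in glycerol lactate between FUS2 and PEP5 (cell fusion in mating and vacuolar sorting) at 735356 to 738668 and RPL20A and YHM2 (a ribosomal protein and a mitochondrial carrier) at 752571 to 754366. Of the pairs chosen by summed count on single chromosomes, those on II (FZO1, a mitochondrial fusion GTPase, with a fragment between genes beside RPS9B) and XV (DIS3, of the RNA exosome, with HRD1, a ubiquitin ligase of the endoplasmic reticulum) also had 6 counts in galactose, and 0 in glycerol lactate. Chromosome VII (DSD1 with COX4 and TPN1) and chromosome VIII (SOD2, mitochondrial superoxide dismutase, with DED81, asparaginyl-tRNA synthetase) had pairs with 3 counts in each medium. On chromosome V the pair of ADK2 and RAD3 with ECM32 had 4 counts in glycerol lactate and 1 in galactose. Chromosomes IX (NIT1 with GUT2 and UBP7) and XVI (SSE1 with GLR1 and RPS6A) had 2 and 4. A few counts per pair do not separate the media, and several of these pairs tied with others, up to 6 on chromosome V.

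The highest pair of chromosome X by summed count, and 1 of the 2 that tied on chromosome XI (the other being the SNU114 pair), joined the ends of their own chromosome. On chromosome X the outermost left fragment of 102 bp and the fragment at 744207 to 745745, both in telomeric repeats, had 6 counts in glycerol lactate and 5 in galactose. On chromosome XI the first 3186 bp, which hold the seripauperin gene PAU16, and the fragment at 665168 to 666454 had 4 in each medium. A pair of fragments in the telomeric repeats of chromosome XIV had 7 and 2. With all mapped sequences these pairs rose to 17 and 16, 48 and 53, and 115 and 108 counts, so that most of their products mapped to more than 1 place.

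Genes for the use of the carbon sources were set against their own chromosome at 1 to 32 kb, leaving out pairs with 1 fragment between them. Expected counts were matched for chromosome and distance but not for fragment length, with which density rose. The enzymes of galactose use on chromosome II had ratios in glycerol lactate and galactose of 1.20 and 0.685 for GAL1 (galactokinase), 1.25 and 1.10 for GAL10 (epimerase) and 1.68 and 1.59 for GAL7 (transferase, 1 fragment of 2547 bp). The GAL7 fragment is also 1 of the 4 of GAL10, so the values of these genes share counts. The regulators of the galactose genes had 0.980 and 1.08 for GAL80 (the inhibitor) and 1.22 and 1.29 for GAL4 (the activator). For uptake and oxidation of lactate and glycerol the values were 0.991 and 1.13 for JEN1 (lactate permease), 1.15 and 1.09 for CYB2 (lactate dehydrogenase), 1.33 and 1.63 for GUT1 (glycerol kinase) and 1.16 and 1.08 for GUT2. ADH2 (the alcohol dehydrogenase of ethanol use) had 0.516 and 0.541, ICL1 (isocitrate lyase) 0.894 and 1.01, and PCK1 (the gluconeogenic carboxykinase) 0.825 and 0.932.

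Without those pairs, GAL1 was the only one of the 12 genes to have a galactose to glycerol lactate ratio whose interval excluded 1, at 0.572 (0.421 to 0.785) from 148 and 60 counts. ADH2 was below its chromosome in both media, with intervals of 0.340 to 0.750 and 0.447 to 0.649. In galactose GAL1 (0.579 to 0.805) was also below its chromosome, and GAL7 (1.20 to 2.07), GAL4 (1.08 to 1.53) and GUT1 (1.42 to 1.87) were above theirs. The part of mapping in these values was not tested. The intervals are not adjusted for the number of genes looked at. With the nearest pairs included, GAL1 had a ratio between media of 1.01 (0.750 to 1.38), and 4 other genes had intervals that excluded 1: JEN1 at 1.67 (1.28 to 2.20), GUT2 at 1.81 (1.36 to 2.44), PCK1 at 2.07 (1.50 to 2.92) and GUT1 at 0.416 (0.342 to 0.507). GUT1 then stood at 4.34 in glycerol lactate, of which 133 of 179 counts came from 1 pair with 1 fragment between. Which genes differed between the media thus depended on whether the nearest pairs were kept, and leaving them out was chosen after seeing the data.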

How the data were processed

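GCC was measured in 2 samples, each 1 combined library of 2 biological replicates. The authors mapped 38 bp paired ends (36 bp in the main methods) without mismatches with SOAP and built fragment pairs with Topography 1.19. The deposited values are counts per pair of MspI fragments, without normalization, in tables of uniquely mapped and of all mapped sequences. Every pair was listed in both orders with equal counts, and was used once. In all, 208 fragments that the tables do not list (150 on the 11 chromosomes, median 7 bp) were placed between their neighbours, and 47 rDNA fragments were left out.

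Density is counts over possible pairs in bins of doubling width. Exponents came from Poisson regression with a dispersion over bins. Intervals are 95% exact Poisson, exact conditional binomial or Wilson, and cover counting error only. No p-value is given with 1 library per medium. Named pairs are, by rule, those of 16 kb or more with the highest summed count on each chromosome and the 3 highest in each medium. The 12 carbon source genes are a fixed list. Members, lists and rules were chosen with earlier results of these data known. The code was tested on simulated data. Of the alternatives, 11 were planned and 2 added after seeing the data. Leaving out near pairs for single genes, length classes and zones of the arms were also chosen then. The software was statsmodels 0.14.6, scipy 1.17.1, pandas 2.3.3, numpy 2.4.6 and matplotlib 3.10.9 under Python 3.11.15.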

Additional observations from a re-analysis of the deposited data

How the results depend on the processing

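Of the values compared across settings, the decay exponent was less negative in galactose under all 13 settings, the main one included. The far level over the level between chromosomes was higher in galactose under all 10, and the far share was higher under all 10, by 0.482 to 9.04 percentage points. These 10 also include the main setting, and some could not move the value. The choice of possible pairs and the weighting of fragments do not enter the far share, and leaving out near pairs does not touch the far level. With all mapped sequences the far level fell below that between chromosomes, to 0.633 in glycerol lactate and 0.759 in galactose, the between-arm ratio was 3.01 and 1.66, the far share 23.4% and 23.8%, and the glycerol lactate exponent -1.20. Over 4 kb to 0.128 Mb the exponents were -1.47 and -1.11. With each pair counted once, the galactose exponent was -0.67, the far share was 19.7% and 23.4% and the glycerol lactate exponent -1.23. Without pairs that had 1 fragment between them, the far share was 17.1% and 18.8% and the glycerol lactate exponent -1.31. Without pairs of 10 or more counts, chosen after seeing the data, the values were 16.5% and 17.7%, and -1.32. With the gap between fragment ends as distance, the glycerol lactate exponent was -1.24 and the galactose far share 15.6%. With fragments of 300 bp or more, the far share was 9.46% and 15.6%, and the galactose far level over that between chromosomes 1.52. Without fragments within 20 kb of an end, the far share was 6.49% and 15.4%, and the galactose between-arm ratio 0.953. With fragments weighted by their contacts with other chromosomes, the between-arm ratio was 0.928 and 0.801. In galactose it was 1.05 with bins 0.5 times as wide and 1.07 with 8 bins per doubling, the latter chosen after seeing the data. With 8 bins per doubling, the density of similar over dissimilar pairs across the centromere went from 1.34 to 1.12 in glycerol lactate and from 2.03 to 1.97 in galactose. Narrow bins without a dissimilar count were left out there, which kept 858 of 1044 similar counts in glycerol lactate and 5338 of 5434 in galactose. The cause of these shifts was not tested, except where a far share rises by construction. Leaving out near pairs does this, and so does leaving out pairs of 10 or more counts, which all lay under 8 kb. Counting each pair once does so too, because counts per seen pair were higher near. They were 42.2 in glycerol lactate and 16.0 in galactose below 0.5 kb, against 1.12 and 1.08 at 0.064 to 0.128 Mb. No paired analysis was possible because each medium has 1 library. Few possible pairs were seen, 1.08% in glycerol lactate and 4.57% in galactose, although glycerol lactate had more same-chromosome counts (1838839 against 1230454), of which 91.1% joined adjacent fragments.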
